A study of Cavia porcellus with 10 samples.

Results

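Expression of 9 genes of DNA replication licensing and of its immediate use was followed through the guinea pig cervix at 3 reproductive stages. Members were chosen by gene name: the 6 subunits of the MCM2 to MCM7 helicase, the loading factors CDC6 and CDT1, the sliding clamp PCNA, and RRM2, a subunit of ribonucleotide reductase. Of these 10 names, 9 had a row among the 25028 genes of the expression table, all 9 passed the filter that left 12645 genes for testing, a mean of 3 TPM in 1 or more stages, and RRM2 is not analysed here. CDC6 passed it through LT alone, the stage where it was highest, so counts are also given without it. Cervices came from Hartley guinea pigs that were not pregnant and in estrus (NP, n = 3), killed the day after the membrane that closes the vulva had gone, from mid-term pregnancy (MT, n = 3, labelled 43.6 ± 0.5 days) and from late-term pregnancy (LT, n = 4, labelled 65.2 ± 1.2 days). Each animal gave 1 poly(A) library of strand-specific 75 bp reads, with 18730665 to 27881572 reads counted on genes. Pregnancy dates were uncertain at purchase. The dissection aimed at the vaginal end of the cervix, to keep uterine muscle out, and cells were not sorted.

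Before a cell copies its DNA, the origin recognition complex (ORC), CDC6 and CDT1 load pairs of MCM2 to MCM7 rings onto each origin, which is then said to be licensed. Geminin, the product of GMNN, binds CDT1 and blocks further loading once DNA synthesis has begun, so that each origin fires only once in a cycle. The genes of this system are classic targets of the E2F transcription factors, and their protein levels are widely read as marks of cells that are able to divide.

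The licensing genes had their lowest stage mean in MT and, for 8 of 9, their highest in LT, the exception being MCM7, whose mean was highest in NP. Between MT and LT 6 of 9 members rose, where 6.73% of all tested genes were called higher. Between NP and LT 3 of 9 rose, beside 11.2% of all tested genes called higher, and between NP and MT none of the 9 passed the test, beside 18.5% called in either direction. Without CDC6 these counts were 5, 2 and 0 of 8. Levels are given in TPM, a read count corrected for gene length and library size, and differences as log2 fold changes of TPM + 1, tested with limma and adjusted over all tested genes with Benjamini-Hochberg. Because the libraries are made from whole tissue, a change in the number of dividing cells and a change in mRNA per cell cannot be told apart here.

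**Figure D1:**
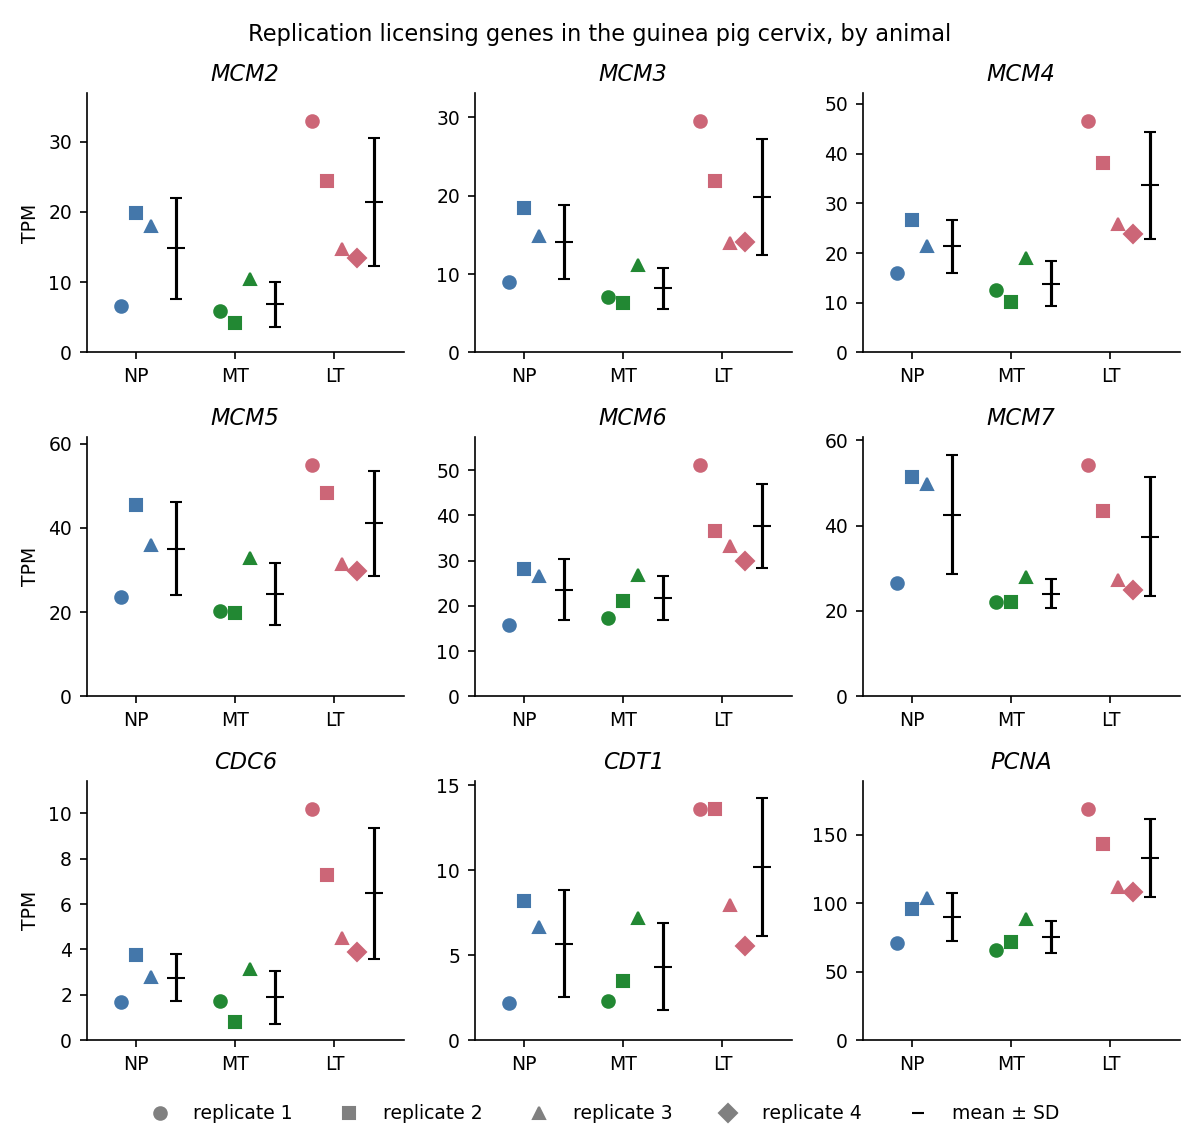
TPM of the 9 licensing genes (vertical axes, each from 0) in each animal of NP, MT and LT. Points are animals, with the marker shape giving the replicate number, and the bars are the stage mean ± SD. LT1 is the highest LT animal in all 9 panels, MT3 the highest MT animal in all 9, and NP1 the lowest NP animal in all 9.

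CDC6 (ENSCPOG00000010305), the ATPase that helps ORC to open and load the helicase ring, was the least abundant member. Its level was 1.69, 3.75 and 2.80 TPM in the NP animals, 1.73, 0.786 and 3.13 TPM in the MT animals and 10.2, 7.30, 4.49 and 3.89 TPM in the LT animals. Every LT animal was above every NP and MT animal. The stage means were 2.75 ± 1.03 (SD, n = 3), 1.88 ± 1.18 (SD, n = 3) and 6.48 ± 2.91 TPM (SD, n = 4), so that the mean crossed the level of 3 TPM, the study's operational limit for an expressed gene, between MT and LT. The MT values rest on 22 to 119 reads an animal and the LT values on 157 to 415. CDC6 rose by 1.38 on the log2 scale between MT and LT (standard error 0.36, limma adjusted p = 0.0201), and by 0.95 between NP and LT (standard error 0.36, limma adjusted p = 0.049). When all genes with a read were tested, without the filter, the adjusted p was 0.0315 and 0.0663, so that the call between NP and LT was lost.

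CDT1 (ENSCPOG00000023857), which brings the MCM ring to the origin, varied more among animals of the same stage. The NP animals had 2.16, 8.18 and 6.67 TPM, the MT animals 2.30, 3.49 and 7.17 TPM and the LT animals 13.6, 13.6, 7.97 and 5.56 TPM. MT3 lay above LT4, so that MT and LT overlapped. The log2 fold change of LT over MT was 1.10 (standard error 0.45, limma adjusted p = 0.0876) and that of LT over NP was 0.81 (standard error 0.45, limma adjusted p = 0.152), neither of which passed the threshold.

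MCM2 (ENSCPOG00000010112) borders, together with MCM5, the gate through which the helicase ring opens. It was at 6.64, 19.9 and 18.0 TPM in NP, at 5.91, 4.26 and 10.4 TPM in MT and at 32.9, 24.4, 14.7 and 13.5 TPM in LT. All LT animals exceeded all MT animals, while NP overlapped both. MCM2 rose between MT and LT by 1.50 on the log2 scale (standard error 0.42, limma adjusted p = 0.0256), a 3.12-fold ratio of the mean TPM. On log2(TPM + 1) only MCM2 had a larger change than CDC6, whereas CDC6 had the larger ratio of mean TPM, 3.44-fold, and the larger log2 fold change with edgeR and DESeq2.

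MCM4 and MCM6 form, with MCM7, a core of the ring that has helicase activity of its own. MCM4 (ENSCPOG00000003682) was at 15.9, 26.7 and 21.4 TPM in NP, at 12.6, 10.1 and 18.9 TPM in MT and at 46.5, 38.2, 25.8 and 23.9 TPM in LT. MCM6 (ENSCPOG00000004609) was at 15.8, 28.2 and 26.6 TPM in NP, at 17.3, 21.0 and 26.8 TPM in MT and at 51.1, 36.5, 33.2 and 30.0 TPM in LT. Both genes separated LT from MT without overlap, and MCM6 also separated LT from NP. Between MT and LT MCM4 rose by 1.21 on the log2 scale (standard error 0.28, limma adjusted p = 0.0114) and MCM6 by 0.76 (standard error 0.24, limma adjusted p = 0.0372). LT exceeded NP by 0.67 for MCM6 (standard error 0.24, limma adjusted p = 0.0365), and for MCM4 this difference of 0.61 did not pass (standard error 0.28, limma adjusted p = 0.0886).

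MCM3 and MCM5 are neighbours in the ring. MCM3 (ENSCPOG00000000867) was at 9.01, 18.4 and 14.8 TPM in NP, at 7.10, 6.28 and 11.2 TPM in MT and at 29.5, 21.9, 14.0 and 14.1 TPM in LT. It rose between MT and LT by 1.16 on the log2 scale (standard error 0.31, limma adjusted p = 0.0212), with no overlap of the animals. MCM5 (ENSCPOG00000021931) was at 23.5, 45.5 and 36.0 TPM in NP, at 20.3, 19.8 and 32.8 TPM in MT and at 54.9, 48.3, 31.3 and 29.8 TPM in LT. Its MT animal of highest level, MT3, stood above LT3 and LT4, and the difference of 0.72 on the log2 scale between MT and LT did not pass (standard error 0.29, limma adjusted p = 0.0798).

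MCM7 (ENSCPOG00000005107) departed from the order of the others. It was at 26.5, 51.4 and 49.8 TPM in NP, at 22.1, 22.0 and 28.0 TPM in MT and at 54.2, 43.4, 27.3 and 24.8 TPM in LT. In the late animals the level was thus split, with LT1 and LT2 near NP2 and NP3 and with LT3 and LT4 near NP1 and the MT animals. None of its log2 fold changes passed, at -0.75 for MT over NP (standard error 0.32, limma adjusted p = 0.126) and 0.56 for LT over MT (standard error 0.30, limma adjusted p = 0.179). That of LT over NP was -0.19 (standard error 0.30, limma adjusted p = 0.605), and turned to 0.12 after scaling each library by its median ratio to the geometric mean of the genes.

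PCNA (ENSCPOG00000009242), the ring that holds the DNA polymerases on the template, was the most abundant member in all 10 animals. It was at 70.6, 96.0 and 104 TPM in NP, at 65.7, 71.7 and 88.6 TPM in MT and at 169, 143, 112 and 108 TPM in LT. Each LT animal was above each animal of the other stages. PCNA rose by 0.80 on the log2 scale between MT and LT (standard error 0.19, limma adjusted p = 0.013) and by 0.55 between NP and LT (standard error 0.19, limma adjusted p = 0.0313).

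Between NP and MT all 9 members had a log2 fold change below 0, from -0.96 for MCM2 to -0.09 for MCM6, with a median of -0.50 beside -0.14 over all tested genes. None of the 9 passed limma, against 18.5% of all tested genes in either direction and 12.2% in the direction of lower levels, and on the read counts edgeR and DESeq2 also called 0, against 18.0% and 24.7% of all tested genes in either direction. Only 1 member, MCM7, had an unadjusted p under 0.05. No member separated the NP from the MT animals, where 34.9% of all tested genes did. NP1 lay below NP2 and NP3 in every member, and without NP1 the MCM2 and MCM7 decreases passed (limma adjusted p = 0.0282 and 0.028). The sign of the MCM6 difference was not stable, since it was 0.05 after median-ratio scaling.

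All 9 log2 fold changes of LT over MT were above 0, with a median of 1.10 while the median over all tested genes was -0.16. The 6 members that rose were MCM2, MCM3, MCM4, MCM6, CDC6 and PCNA, and the same 6 had no overlap between MT and LT animals. Of all tested genes 6.73% were called higher and 10.8% did not overlap in that direction. With median-ratio scaling 8 of 9 members were called higher, where 14.6% of all tested genes were, and DESeq2 called all 9, where it called 17.4% higher. The count depended on single animals. It was 1 without MT2, when PCNA alone passed, 2 without LT2, 3 without MT1, 4 without LT1 and 8 without NP1, which enters through the shared estimate of the spread. Calls over all genes moved as well. In either direction they numbered 3723 with all animals and from 1944 to 5354 with single animals left out. PCNA passed in all 20 alternative settings and MCM4 in 19, not passing without MT2 (limma adjusted p = 0.052). CDC6 did not pass without MT2 or LT2 (0.0853 and 0.0516), MCM3 without MT1, MT2 or LT2 (0.0524 to 0.0868), MCM2 without MT1, MT2, LT1 or LT2 (0.0531 to 0.106) and MCM6 without MT1, MT2, LT1, LT2 or LT3 (0.0615 to 0.119). MCM6 also did not pass without the filter on low values (0.0565), which left 5 members. MCM5 and CDT1 passed without NP1 (limma adjusted p = 0.0466 and 0.0382).

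MCM6, CDC6 and PCNA rose between NP and LT, and these 3 were also those whose NP and LT animals did not overlap. The shares over all tested genes were 11.2% called higher and 11.8% without overlap in that direction. The median log2 fold change was 0.55 over the members and -0.28 over all tested genes, and that of the members was 0.87 after median-ratio scaling and 0.89 with quantile normalization. After median-ratio scaling 5 members were called higher, where 26.3% of all tested genes were, with quantile normalization 6 beside 21.3%, with DESeq2 6 beside 26.2%, and without the filter 1 beside 7.98% of 18100 genes. No member passed without NP1, LT1 or LT2, and 1 passed without NP2 or LT3. Over all genes, in either direction, 6718 were called with all animals and from 5279 to 7794 with single animals left out. PCNA was lost without NP1, NP2, LT1 or LT2 (limma adjusted p = 0.0549 to 0.103), MCM6 without NP1, MT2, LT1, LT2 or LT3 (0.0502 to 0.122), and CDC6 without any one of NP1, NP2, NP3, MT1, LT1, LT2 and LT3 (0.0524 to 0.138). The 3 comparisons share their animals, so that a low MT value enters both the first and the second.

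**Figure D2:**
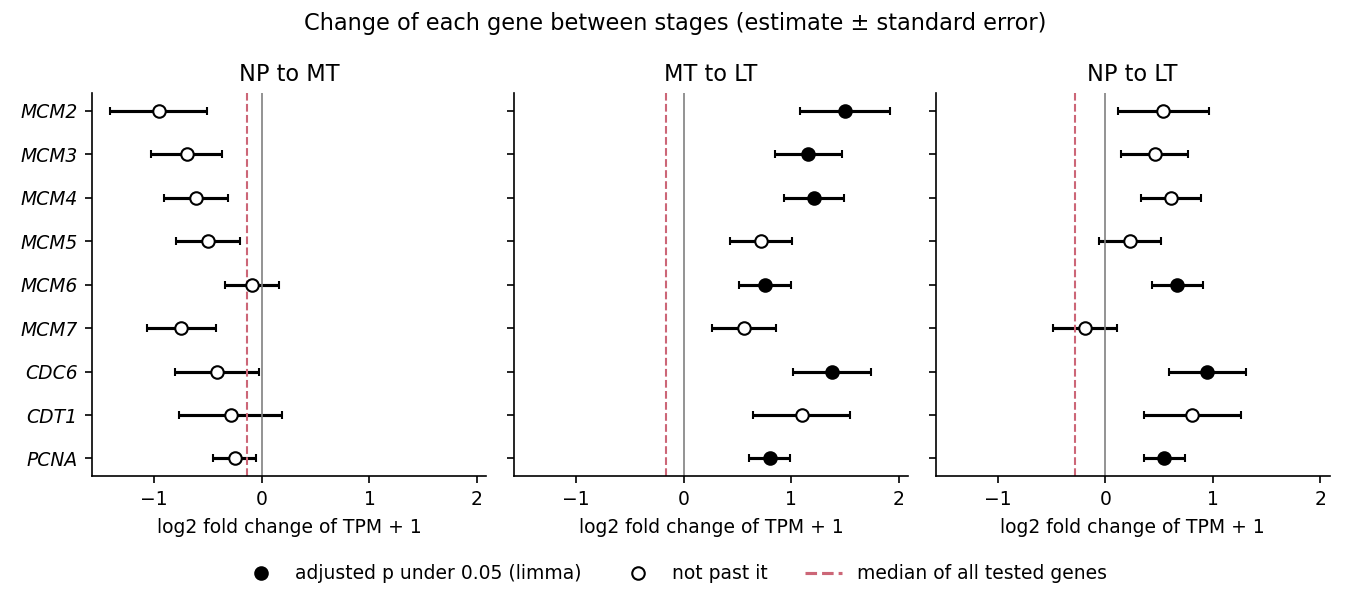
Log2 fold change of TPM + 1 (horizontal axis) of each licensing gene from NP to MT, MT to LT and NP to LT, with standard errors. Filled points have a limma adjusted p under 0.05, 0, 6 and 3 of the 9 genes in turn, and the dashed line is the median of all tested genes, at -0.14, -0.16 and -0.28. The points of MCM6 from NP to MT and of MCM7 from NP to LT lie below 0 here but above 0 after median-ratio scaling.

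A test over the 3 stages together was run on square-root TPM by permuting the F statistic over all 4200 assignments of the animals. MCM4 and PCNA passed after adjustment over all tested genes (exact permutation, adjusted p = 0.0427 and 0.0352), and 47.1% of all tested genes did so. CDC6 and MCM6 had an exact p under 0.05 before adjustment only (adjusted p = 0.0594 and 0.0792), which made 4 members beside 58.4% of all tested genes. After median-ratio scaling 5 members passed, and 44.9% of all tested genes did.

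Animals of one stage also differed from each other. The highest animal exceeded the lowest by 1.47-fold for PCNA to 3.78-fold for CDT1 in NP, by 1.27-fold for MCM7 to 3.98-fold for CDC6 in MT and by 1.56-fold for PCNA to 2.63-fold for CDC6 in LT. The members moved together in this. LT1 and LT2 were both above LT3 and LT4 in all 9 members, with a ratio of the pair means from 1.39 for MCM6 to 2.09 for CDC6. LT1 and LT2 also exceeded every other animal in 8 members, all but MCM7. As a description over the 10 animals, the Pearson correlation of each member with the mean of the other members was 0.793 for MCM7 and between 0.914 and 0.988 for the rest.

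The makeup of the tissue also differed among animals. The summed TPM of 8 smooth muscle markers, all of which had a row, was 31600, 11200 and 8740 in NP, 13100, 19700 and 15200 in MT and 19500, 19500, 38800 and 40100 in LT. NP1, LT3 and LT4, the animals low in licensing genes within their stage, were thus those highest in smooth muscle markers, and MT2, lowest of MT in 6 of 9 members, was the highest of MT. The orders were not the same throughout, since MT1 was lowest of MT in smooth muscle markers and yet below MT3 in all 9 members. Squamous epithelium markers, with a row for 11 of 17, were 3840 TPM in NP1 against 1230 and 1110 in NP2 and NP3. They were at 227 to 1520 TPM in MT and at 1730, 2730, 3000 and 3500 TPM in LT1 to LT4. LT1 was thus the lowest of LT in squamous markers, while it was the highest of LT in all 9 members. Among the defining squamous markers, SPRR3 had no reads in 6 animals and CRNN none in 7. The 9 squamous markers tested had a median of -1.10 on the log2 scale between NP and MT, where 3 were called lower (IVL, SPRR3 and TGM1), and 1.53 from MT to LT, where KRT14 alone was called, higher by 2.50 (limma adjusted p = 0.0184). From NP to LT their median was 0.43, with 1 called higher and 3 lower. The medians from NP to MT and from MT to LT had the signs of those of the members. The medians of the tested stromal markers (-0.29 and 0.10) and leukocyte markers (-0.29 and 0.11) had these signs as well. Secretory epithelium markers (11 of 14) had no overlap between the stages, with 1130 to 1260 TPM in NP, 3450 to 5820 in MT and 8080 to 9660 in LT. Between NP and MT 7 of the 9 tested secretory markers rose and 1 fell, but between MT and LT only AGR2 rose (means of 2260 and 6720 TPM), the median log2 fold change being 0.07, and MUC5B was at 75.8, 730 and 340 TPM in the 3 stages. Leukocyte markers (14 of 18), made up mostly of S100A8 and S100A9, were also separate, at 4610 to 8520, 9110 to 13400 and 15100 to 19400 TPM. Of the 12 leukocyte markers tested, 4 were called higher and 2 lower in LT than in NP, the latter being PTPRC and ITGAX (log2 fold changes of -0.98 and -1.24, limma adjusted p = 0.0154 and 0.0169), and the median over the 12 was -0.39. Stromal markers (8 of 11) overlapped, at 7050 to 11900, 5880 to 10900 and 6920 to 10100 TPM, and endothelial markers (6 of 8) were at 135 to 183, 98.7 to 143 and 52.6 to 87.4 TPM. The part of these cell types in the licensing values was not tested.

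Levels of different members were compared in TPM. PCNA led at all stages with a range that did not overlap the next gene, and CDT1 and CDC6 closed the order at all stages. MCM7 and MCM5 followed PCNA in NP, at 42.6 ± 13.9 and 35.0 ± 11.1 TPM (SD, n = 3), with overlapping ranges but MCM7 above MCM5 in 3 of 3 animals. In MT the means of MCM5 and MCM7, 24.3 ± 7.37 and 24.0 ± 3.42 TPM (SD, n = 3), did not differ beyond their spread, and MCM5 was the higher in 1 of 3 animals. In LT MCM5, MCM6 and MCM7 were at 41.1 ± 12.4, 37.7 ± 9.34 and 37.4 ± 13.9 TPM (SD, n = 4), with 2 of 4 animals in either order for each neighbouring pair.

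The loaded helicase holds its 6 subunits in equal number, whereas their mRNAs differed. In a single animal the most abundant subunit exceeded the least abundant by 1.86-fold in LT1 to 5.17-fold in MT2. The summed level of MCM2 to MCM7 was 151 ± 48.2 TPM in NP (SD, n = 3), 98.9 ± 25.2 in MT (SD, n = 3) and 191 ± 62.1 in LT (SD, n = 4). The share of MCM7 in this sum was 28.0 ± 1.58% in NP, 24.7 ± 2.48% in MT and 19.4 ± 1.09% in LT, with no overlap between any of the stages (exact permutation of F, p = 0.000476, the smallest that the design allows, adjusted p = 0.00286 over 6 shares). MCM6 took 15.7 ± 0.739% in NP, 22.1 ± 2.66% in MT and 20.2 ± 2.60% in LT (exact permutation, adjusted p = 0.0406). MCM3 went from 9.26 ± 0.415% through 8.19 ± 0.615% to 10.3 ± 0.582% (exact permutation, adjusted p = 0.00857). The shares were examined after the values had been seen, and they sum to 100%, so that a lower share of one subunit raises those of the others. When single animals were left out, the adjusted p stayed between 0.00952 and 0.0365 for MCM7 and for MCM3. The MCM6 share no longer passed without any 1 of the 10 animals (0.05 to 0.0865). MCM2, MCM4 and MCM5 had adjusted p of 0.0406, 0.0406 and 0.049, which rose to as much as 0.11, 0.0771 and 0.113 without single animals.

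**Figure D3:**
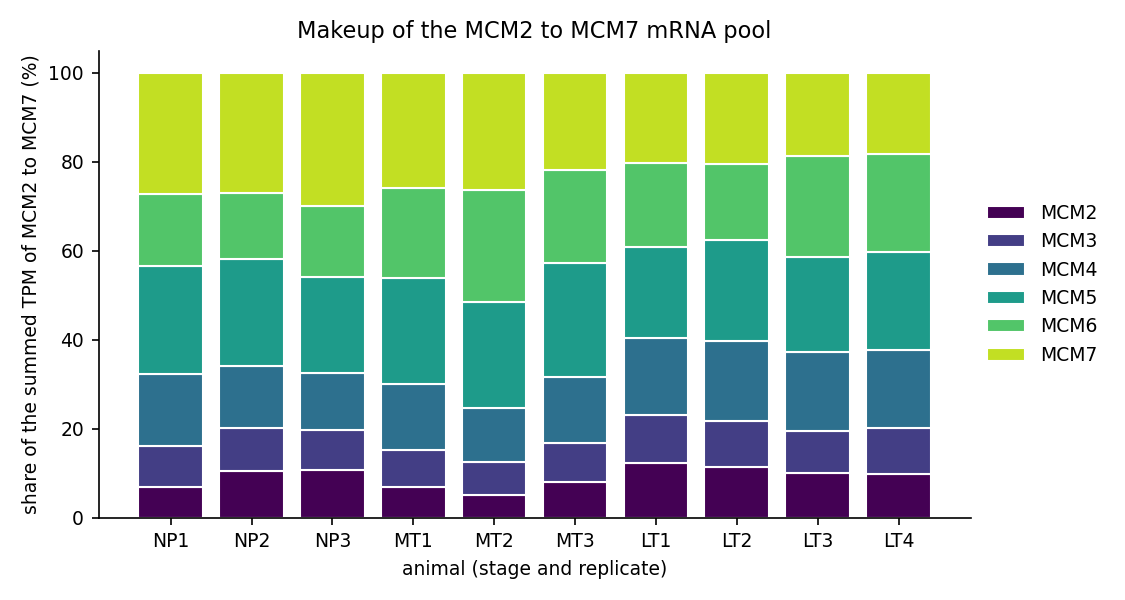
Share of each subunit in the summed TPM of MCM2 to MCM7 (vertical axis, percent) for the 10 animals (horizontal axis), stacked from MCM2 at the bottom to MCM7 at the top. The MCM7 share is 27.0 to 29.9% in NP, 21.9 to 26.4% in MT and 18.2 to 20.4% in LT.

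GMNN, the inhibitor of CDT1, did not follow the licensing genes. Its level was 5.99, 22.8 and 15.7 TPM in NP, 83.5, 92.0 and 142 TPM in MT and 71.5, 51.4, 32.3 and 20.2 TPM in LT. Every MT animal was above every animal of the other stages. Between NP and MT GMNN rose by 2.89 on the log2 scale (standard error 0.51, limma adjusted p = 0.00534), and it passed in all 20 alternative settings. For LT over MT the difference of -1.36 did not pass (limma adjusted p = 0.0548), although it did in 6 of 20 alternatives, among them DESeq2, the fit of only those stages and that without NP1 (adjusted p = 0.0408, 0.0317 and 0.0224). LT exceeded NP by 1.52 (limma adjusted p = 0.0217), a call that was lost without NP1, LT1 or LT2 (limma adjusted p = 0.0722, 0.0502 and 0.0534). Among the secretory epithelium markers given above, MUC5B also had its highest mean in MT, AGR2 had its highest in LT, and the part of these cells in the GMNN values was not tested. The gene model behind the GMNN row was not examined here, so that its values and the ratio below hold for the row of that name.

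The log2 ratio of CDT1 to GMNN, with 1 TPM added to each, was -1.21 ± 0.14 in NP (SD, n = 3), -4.39 ± 0.27 in MT (SD, n = 3) and -1.93 ± 0.26 in LT (SD, n = 4). No animal of one stage overlapped another stage (exact permutation of F, p = 0.000476, adjusted p = 0.00143 over 3 ratios). Such a ratio depends little on the TPM total of a library. NP1, which was low in both genes, had a ratio of -1.14, next to -1.13 in NP3, and LT1 to LT4 were at -2.31, -1.84, -1.89 and -1.69. The ratio of CDC6 to ORC1, the ORC subunit that CDC6 most resembles, was 0.16 ± 0.11 in NP, 0.68 ± 0.23 in MT and 0.82 ± 0.11 in LT (SD, exact permutation of F, adjusted p = 0.00929). NP lay below both pregnant stages without overlap, and MT and LT overlapped. The order of MT and LT depended on the added 1 TPM, since without it the ratio was 0.22 ± 0.13, 1.38 ± 0.26 and 1.02 ± 0.14 (exact permutation of F, adjusted p = 0.00214), again with MT and LT overlapping, and MT2 rests on 22 reads of CDC6 and 11 of ORC1. PCNA to MCM2 was 2.64 ± 0.53, 3.35 ± 0.41 and 2.65 ± 0.28 (exact permutation of F, p = 0.11), and passed without NP1 (exact permutation, adjusted p = 0.0198).

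**Figure D4:**
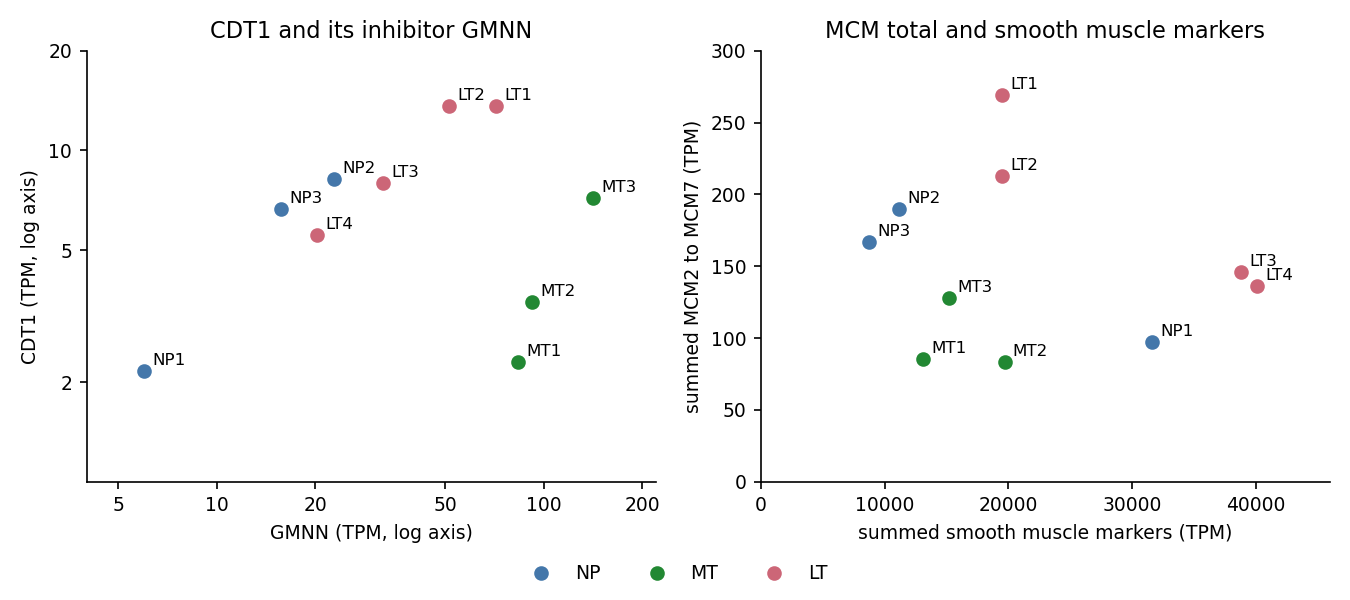
Left, CDT1 against GMNN (TPM, both axes on a log scale), where the MT animals lie to the right at 83.5 to 142 TPM of GMNN. Right, the summed TPM of MCM2 to MCM7 against the summed TPM of 8 smooth muscle markers, where NP1, LT3 and LT4 lie to the right at 31600, 38800 and 40100. Points are animals, coloured by stage.

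Other genes of the replication machinery were counted in 4 lists, with 61 genes tested. In MT relative to NP 1 rose and 10 fell, in LT relative to MT 23 rose and 2 fell, and in LT relative to NP 11 rose and 8 fell. Of all tested genes 6.27% rose and 12.2% fell in the first comparison, 6.73% rose and 22.7% fell in the second, and 11.2% rose and 41.9% fell in the third. CDC45, CLSPN, DCK, FBXO5, MCM10, ORC1 and POLE passed the filter only through LT, where they were highest. Without these 7 the counts of genes that rose were 1, 16 and 8 of 54, and those that fell 9, 2 and 8. After median-ratio scaling 3 of the 61 rose and 8 fell from NP to MT (all tested genes 10.9% and 7.15%), 36 rose and 1 fell from MT to LT (14.6% and 14.8%), and 28 rose and 2 fell from NP to LT (26.3% and 23.4%). Each change below is a log2 fold change with a limma adjusted p under 0.05 over all tested genes. Among 16 genes of origin recognition and licensing control, GMNN rose and FBXO5 and SKP2 fell from NP to MT, at -0.87 and -0.60, and passed in 10 of 18 and 15 of 19 alternatives. FBXO5 encodes an inhibitor of the anaphase-promoting complex, and SKP2 a ubiquitin ligase subunit that acts on CDT1. Between MT and LT MCM10, FBXO5 and ORC1 rose by 1.57, 1.43 and 1.24, and KAT7, a histone acetyltransferase that acts at origins, fell by 0.45. KAT7 passed in 7 of 20 alternatives and ORC1 in 15 of 17. The other ORC subunits with a row, ORC2, ORC3, ORC4 and ORC6, had differences of -0.04, -0.01, -0.11 and 0.32 in this comparison and did not pass (limma adjusted p = 0.202 to 0.944). Compared with NP, GMNN and MCM10 rose in LT and KAT7, ORC4 and SKP2 fell. KAT7, at -0.65, passed in all 20 alternatives and MCM10 passed in 14 of 19. ORC4 and SKP2, both at -0.39, did not pass under any of the 4 other scalings (median-ratio, quantile, edgeR and DESeq2), ORC4 shrinking to as little as -0.07 (adjusted p up to 0.607) and SKP2 turning to 0.11 with quantile normalization. They passed in 13 of 20 and 9 of 19 alternatives.

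Origin firing, the step that turns a licensed origin into a pair of forks, was covered by 12 tested genes. In MT relative to NP DBF4 and TOPBP1 fell by 0.90 and 0.45, TOPBP1 in 6 of 20 alternatives. Between MT and LT 6 rose, led by CDC45 at 1.90, GINS4 at 1.52, CLSPN at 1.20 and GINS3 at 1.04. CDC45 and the GINS proteins join the MCM ring to make the active helicase. CDC7, the kinase that fires licensed origins together with DBF4, was lower in LT than in MT by a difference of -0.61 and than in NP by -0.95 (limma adjusted p = 0.0149 and 0.00075), while DBF4, its activator, rose by 0.88 between MT and LT (limma adjusted p = 0.00707). The CDC7 decrease between MT and LT had a limma adjusted p of up to 0.0786 in the alternatives, passing in 17 of 20, and CLSPN passed in 16 of 19. Relative to NP, the LT animals were higher in CDC45, GINS4 and GINS1 and lower in CDC7, TIMELESS and TOPBP1. Of these CDC45 passed in 9 of 19 alternatives, GINS4 in 8 of 20, GINS1 in 6 of 20, TIMELESS in 5 of 20 and CDC7 in all 20, and TOPBP1 was lost with median-ratio scaling and quantile normalization. TIMELESS, at -0.64, did not pass with median-ratio scaling, quantile normalization, edgeR or DESeq2. Over the alternatives its difference came down to as little as -0.23 (adjusted p up to 0.303).

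Of 23 tested genes for polymerases, clamp loading and chromatin assembly, POLE2, POLA1 and RFC4 fell from NP to MT, by 1.14, 0.57 and 0.50, and none rose. POLE2 passed in 18 of 19 alternatives, POLA1 in 10 of 19 and RFC4 in 9 of 20. In LT relative to MT 9 rose and none fell, with POLE2 at 1.55, POLE at 1.29, PRIM1 at 1.24 and CHAF1B at 1.16, of which CHAF1B passed in 11 of 19 alternatives. POLE and POLE2 are subunits of the leading-strand polymerase and PRIM1 is the primase. Relative to NP, POLA2, PRIM1 and FEN1 were higher in LT by 0.74, 0.68 and 0.60, with PRIM1 in 16 of 20 alternatives and FEN1 in 13 of 20, and RPA1, a subunit of the single-strand binding protein, fell by 0.42 but did not pass with median-ratio scaling, quantile normalization, edgeR or DESeq2, where its difference came down to as little as -0.10 (adjusted p up to 0.475).

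For nucleotide supply 10 genes were tested. TK1, SAMHD1 and RRM1 fell from NP to MT by 1.50, 0.78 and 0.51, in 20, 18 and 15 of 20 alternatives. Between MT and LT TYMS rose by 2.68, TK1 by 2.36, DCK by 1.75 and RRM1 by 0.72, and DUT was the remaining one called, in 14 of 20 alternatives. TYMS makes thymidylate, and TK1 and DCK salvage nucleosides. RRM1, the large subunit of ribonucleotide reductase, had a mean of 48.9 TPM in NP, 33.9 in MT and 57.0 in LT. In LT relative to NP TYMS, TK1 and DCK rose, in 16 of 20, 15 of 20 and 12 of 19 alternatives, and SAMHD1, which breaks down deoxynucleotides, fell by 0.46. The SAMHD1 call held in 11 of 20 alternatives and in none of the 4 with another scaling, where the difference went to as little as -0.04 (adjusted p up to 0.874).

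E2F factors, cyclins and their inhibitors gave 27 tested genes that did not move one way. In MT relative to NP 7 fell, led by CDKN2B, CCNA2, CDK6 and CDKN1A at -1.84, -1.76, -1.23 and -1.13, and CCND3 rose by 0.48. CDKN1A passed in 13 of 20 alternatives. In LT relative to MT 8 rose, led by CCNA2 at 2.73, MYBL2 at 2.13, E2F1 at 2.10 and CCNE1 at 1.69, whereas CCND2, CDKN1B, MYC and RBL2 fell by 0.70, 0.60, 0.54 and 0.46. CCND2 and RBL2 passed in all 20 alternatives, CDKN1B in 13 and MYC in 16, and after median-ratio scaling 13 genes were higher and 2 lower. In LT relative to NP 6 rose, namely CCNE2 at 1.52, MYBL2 at 1.21, E2F8 at 1.16, CCNA2 at 0.97, CCNE1 at 0.92 and CCND3 at 0.79, and 10 of 27 fell, led by CDK6 at -1.32, beside 41.9% of all tested genes. CCNA2 passed in 12 of 20 alternatives and CCNE1 in 14 of 19. After median-ratio scaling 11 were higher and 6 lower. MYBL2 and E2F7 passed the filter only through LT, and without them 6 rose between MT and LT and 5 between NP and LT.

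Mitosis and kinetochore genes were compared as the genes used at the end of the cycle. All 19 tested fell from NP to MT, with a median of -1.76, and all 19 rose from MT to LT, with a median of 2.21. The members had medians of -0.50 and 1.10, and all tested genes -0.14 and -0.16. In MT relative to NP SPC25, TOP2A, CDK1 and KIF11 fell by 2.34, 2.12, 2.08 and 1.99. In LT relative to MT CDK1, SPC24, SPC25 and AURKB rose by 2.88, 2.78, 2.65 and 2.60, and in LT relative to NP SPC24, CDK1 and FOXM1 rose by 1.11, 0.80 and 0.79, in 20, 13 and 10 of 20 alternatives. After median-ratio scaling 8 of the 19 were higher in LT than in NP, beside 26.3% of all tested genes. To test whether a licensing gene and the division marker MKI67 changed unequally, the ratio of each member to MKI67 was permuted over the stages, a test added after the values had been seen. All 9 ratios were higher in MT than in NP, by 0.97 to 1.83 on the log2 scale, but none passed the exact permutation test of F (adjusted p = 0.123 to 0.375 over 9 ratios). Without MT1 8 of the 9 passed (adjusted p = 0.0214 to 0.0455), all but MCM2. With other single animals left out, the highest adjusted p of a ratio lay between 0.326 and 0.648, depending on the member. All 9 ratios share MKI67, at 5.15, 1.06 and 2.71 TPM in MT1, MT2 and MT3, so they are not 9 separate results.

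**Figure D5:**
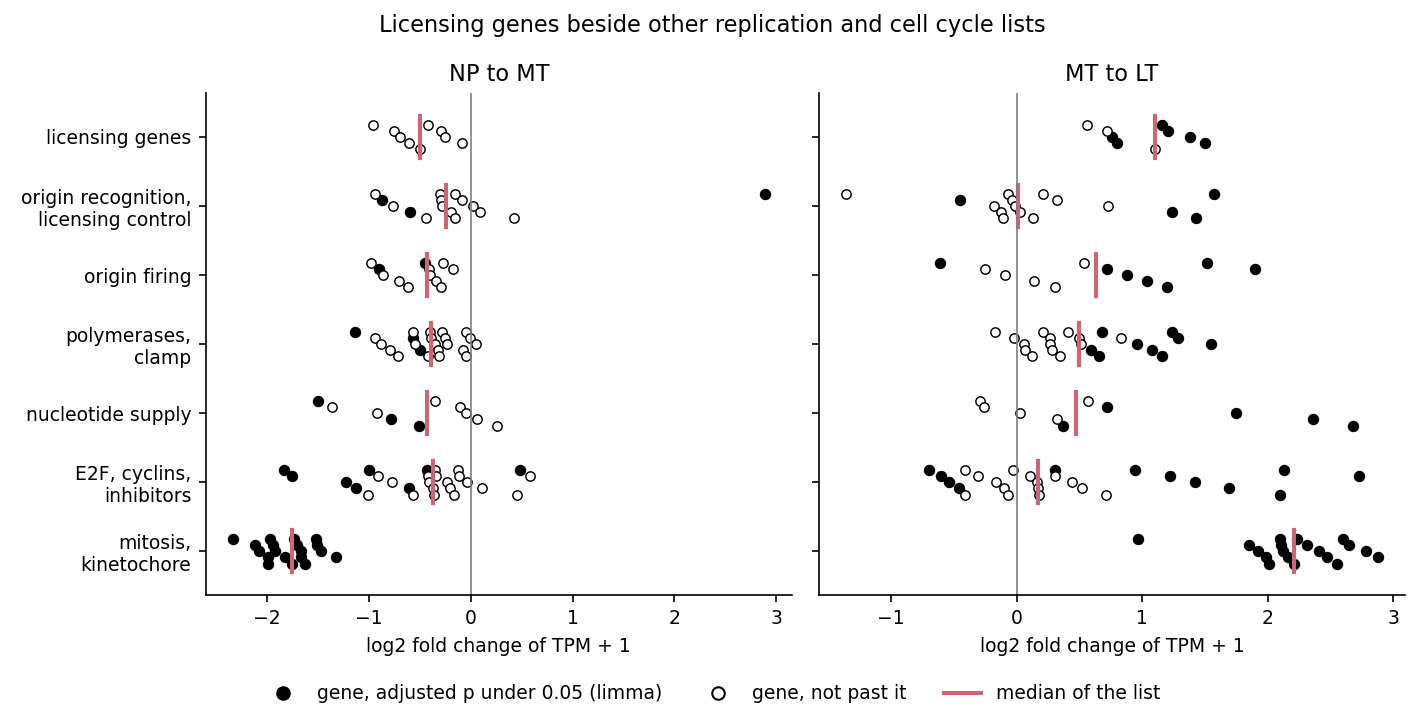
Log2 fold change of TPM + 1 (horizontal axis) of each tested gene of 7 lists, from NP to MT on the left and from MT to LT on the right. Points are genes, filled where the limma adjusted p is under 0.05, and the vertical bars are list medians, which lie at -0.50 and 1.10 for the licensing genes and at -1.76 and 2.21 for mitosis. The filled point far to the right from NP to MT is GMNN at 2.89.

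The 5 named genes outside the members whose levels were most like the mean standardized profile of the members over the 10 animals were DTL, PSMC3IP, SLBP, MLF1IP and WDR76, with Pearson r of 0.990, 0.987, 0.978, 0.975 and 0.969. DTL, which directs the destruction of CDT1 on PCNA-bound DNA, had means of 3.51 ± 1.22 TPM in NP (SD, n = 3), 2.26 ± 0.647 in MT (SD, n = 3) and 4.43 ± 1.16 in LT (SD, n = 4). SLBP, which binds the stem-loop of histone mRNAs, was at 70.4 ± 15.3, 58.7 ± 7.85 and 82.4 ± 11.0 TPM. These correlations describe 10 libraries that also differed in depth and tissue makeup.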

How the data were processed

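Cervix RNA of 10 animals was analysed in 1 table. According to the methods and the submitters' processing notes, the authors processed reads with CASAVA 1.8.2, aligned them with TopHat2 to cavPor3.69 and counted them with HTSeq 0.5.4p1. The deposited read counts and the TPM values that the authors derived from the counts were used as they stand, without a new alignment. TPM sums to 1000000 per animal, so a gene's value also moves with all other genes. No gene coordinates are printed, since the annotation used here was of another build.

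Genes that reached 3 TPM on average in 1 or more stages were compared by limma 3.58.1 (trend, R 4.3.3) on log2(TPM + 1), with stage as the only term and all animals contributing to the spread. A pseudocount of 1 understates changes of low genes. Tests were two-sided, Benjamini-Hochberg adjusted over 12645 genes, and called at 0.05. Separate animals were the replicates. In simulated counts the limma step recovered, of 2-fold and 4-fold changes, 54.5% and 92.9% from NP to MT (12315 genes), 64.6% and 92.9% from MT to LT (12292 genes) and 57.6% and 91.8% from NP to LT (12273 genes). False calls were 3.9%, 2.5% and 1.4%. The simulation changed 200 genes, evenly up and down, and kept all others at the same mean in every stage. In the data 18.5% to 53.1% of all tested genes were called, with a split that depended on the scaling. These rates may therefore not hold for the data. Exact permutation of F was run for members, ratios and shares, and edgeR 4.0.16 and DESeq2 1.42.0 on the counts were alternatives.

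The members and the gene lists were chosen with earlier results of these data known. Named are all members, both genes of each ratio, up to 4 called genes of largest change per list and comparison with any called gene that moved against its list, and the 5 genes most like the members. MKI67, E2F7, KRT14, IVL, SPRR3, TGM1, AGR2, MUC5B, PTPRC, ITGAX, DUT, GINS1, ORC2, ORC3, ORC6, ORC4 between MT and LT, TOPBP1 and SKP2 between NP and LT and DBF4 between MT and LT were named after their values were seen. Ratios with RRM2 were not computed.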

Additional observations from a re-analysis of the deposited data

How the results depend on the processing

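Of the results for the licensing genes, the 3 median log2 fold changes kept their direction and stayed within the spread between animals in every alternative that used a log2 scale. With each animal left out in turn they ranged from -0.76 to -0.29 from NP to MT, from 0.81 to 1.38 from MT to LT and from 0.34 to 0.78 from NP to LT. The last was 0.55 with all animals and 0.86 to 0.89 with median-ratio scaling, quantile normalization, edgeR and DESeq2. The number of licensing genes called ranged from 0 to 2, from 1 to 8 and from 0 to 3 in the same order, and the number of all genes called from 1099 to 4202, from 1944 to 5354 and from 5279 to 7794. From NP to LT the number of licensing genes called was 5 with median-ratio scaling, 6 with quantile normalization, 6 with DESeq2 and 1 without the filter on low values, beside 26.3%, 21.3%, 26.2% and 7.98% of all genes called higher. With only NP and MT in the fit 1103 genes were called from NP to MT, where 2342 were called with all animals.

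Median-ratio scaling moved the split of higher and lower calls over all genes from 793 and 1549 to 1378 and 904 from NP to MT, from 851 and 2872 to 1848 and 1868 from MT to LT, and from 1417 and 5301 to 3330 and 2955 from NP to LT. The stage test of F called 2 licensing genes before this scaling, beside 47.1% of all tested genes. After it the test called 5, beside 44.9%. Signs turned for differences near 0. From NP to MT MCM6 was at 0.05 with median-ratio scaling, at 0.03 with quantile normalization, edgeR and DESeq2, and at 0.06, 0.02 and 0.05 without NP2, NP3 and MT1, with a range of -0.34 to 0.06 when single animals were left out, and CDT1 was at 0.01 without NP2 (range -0.76 to 0.01). From NP to LT MCM7 was at 0.12 with median-ratio scaling and with edgeR, at 0.01 with quantile normalization and at 0.13 with DESeq2, and MCM5 was at -0.03 without NP1 (range -0.03 to 0.44).

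Replicate numbers did not pair the animals, since 3 of 9 same-numbered pairs had deviations that correlated above 0.1 (r from -0.287 to 0.254). With the replicate number as a block, 2 licensing genes (MCM4 and PCNA) were called higher from MT to LT. In that fit 1693 of the 12645 tested genes were called in either direction. From NP to LT PCNA kept its call with the block, and MCM6 and CDC6 did not. The ratio of CDT1 to GMNN had an adjusted p of 0.00238 to 0.0107 with each animal left out, that of CDC6 to ORC1 0.00238 to 0.0268 and that of PCNA to MCM2 0.0198 to 0.345. Computed with no pseudocount, a setting chosen after seeing the data, the ratios had adjusted p of 0.00143, 0.00214 and 0.1. Among the members depth limits CDC6 most, at 22 reads in MT2. The cause of these changes was not tested.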
